A study of Mus musculus with 20 samples.

Results

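The Hoxb cluster is one of the 4 Hox gene clusters of the mouse, a row of homeobox genes that are read in one direction and encode transcription factors of body patterning. The members were the 10 genes of the cluster, Hoxb1 to Hoxb9 and Hoxb13, of 21938 protein-coding genes at whose starts peaks were counted. Every peak in the span from the start of Hoxb13 to the end of Hoxb1 (GRCm38, chr11:96194316-96368256, 174 kb), extended by 50 kb on either side, was taken and assigned to the Hoxb gene with the nearest start. This rule found 158 of the 591292 peaks of the 12 lists. H3K27ac, H3K4me1, and H3K4me3 were mapped by ChIP-Seq in lineage-negative (Lin-) bone marrow cells, which remain once cells with markers of mature blood lineages have been taken out and are rich in stem and progenitor cells. The comparison asks where each mark lay over the Hoxb genes, and whether calls of H3K4me1 and H3K4me3 moved with those of H3K27ac when Ep300, Tet2, or both were lost.

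All mice carried floxed Ep300 alleles and received poly(I:C) at 6 to 8 weeks of age. WT mice were Ep300 fl/fl without Cre, and Ep300Δ/Δ mice carried Mx1-Cre and Ep300 fl/fl. Tet2-/- mice were Ep300 fl/fl and Tet2-/-, and Ep300Δ/ΔTet2-/- mice carried Mx1-Cre, Ep300 fl/fl, and Tet2-/-. Mx1-Cre is driven by an interferon-inducible promoter, which poly(I:C) turns on and which is not confined to blood cells. There was 1 library for each genotype and mark. How many mice a library pooled is not given in the sources used here. The methods name 2 weeks after poly(I:C) as the general time point, unless another is stated, and state none for these libraries. The lists thus have no replicate error, no test between genotypes was possible, and no P value is given. The loss of Ep300 and Tet2 was not checked here, because lists of histone peaks do not give the level of either gene.

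Ep300 encodes p300, an acetyltransferase that places H3K27ac on enhancers and promoters, and Tet2 encodes an enzyme that oxidizes 5-methylcytosine in DNA. H3K27ac lies at active enhancers and promoters, H3K4me1 at enhancers whether or not they are active, and H3K4me3 mainly at promoters. Hox clusters are held silent by Polycomb complexes and kept open by KMT2A (MLL1) complexes, and in blood many Hoxa and Hoxb genes are expressed in stem and progenitor cells and fall silent as cells mature. Hoxb4 expands hematopoietic stem cells when overexpressed, and Hoxb5 marks long-term stem cells.

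All 12 H3K27ac peaks of the span lay within 8.23 kb, between Hoxb5 and the first exon of Hoxb4, and formed 4 merged regions. Sequences from 3 of these regions are shown because acetylation was called nowhere else in the 274-kb span, together with the bases before the Hoxb4 start, the gene whose first exon holds the last region. The first is the stretch upstream of Hoxb4 shared by the peaks of all 4 genotypes (chr11:96311164-96311415). The second is the peak called in Ep300Δ/ΔTet2-/- cells alone, up to 150 bases beyond its summit (chr11:96311821-96312048). The third is the stretch shared by the peaks of Ep300Δ/Δ and Ep300Δ/ΔTet2-/- cells (chr11:96314901-96315162). The fourth is the 250 bases before the Hoxb4 start (chr11:96318017-96318266), from the RefSeq promoter table for GRCm38, which matched 3 of the 10 members. H3K27ac peaks reached into the last 57 of these bases in Ep300Δ/Δ cells and covered 0 of them in the other 3 genotypes. All are given on the plus strand, which is the strand of all 10 genes, and none holds an annotated exon. Capitals mark matches, on either strand, to 7 motifs: the HOX with PBX motif TGATTNAT, the homeodomain core TAATTA, the MEIS motif TGACAG, the nuclear receptor motif AGGTCA, the RUNX motif TGTGGT, the GATA factor motif AGATAA, and the ETS motif CCGGAA.
Upstream stretch, all 4 genotypes: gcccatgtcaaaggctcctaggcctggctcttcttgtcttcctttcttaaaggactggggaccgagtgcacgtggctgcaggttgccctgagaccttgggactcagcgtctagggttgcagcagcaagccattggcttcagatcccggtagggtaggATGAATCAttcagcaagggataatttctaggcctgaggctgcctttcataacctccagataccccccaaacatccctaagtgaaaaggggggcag
Stretch called in Ep300Δ/ΔTet2-/- cells alone: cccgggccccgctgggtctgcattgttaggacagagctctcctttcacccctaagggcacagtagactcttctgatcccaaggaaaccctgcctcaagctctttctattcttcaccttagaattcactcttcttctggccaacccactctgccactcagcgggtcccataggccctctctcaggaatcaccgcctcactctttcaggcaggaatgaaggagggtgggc
Stretch called in both genotypes with Ep300 deleted: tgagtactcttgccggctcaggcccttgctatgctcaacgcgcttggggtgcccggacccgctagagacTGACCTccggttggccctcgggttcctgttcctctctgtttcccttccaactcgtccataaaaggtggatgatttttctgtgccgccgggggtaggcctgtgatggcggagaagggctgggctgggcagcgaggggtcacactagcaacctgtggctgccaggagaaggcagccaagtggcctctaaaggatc
Bases before the Hoxb4 start: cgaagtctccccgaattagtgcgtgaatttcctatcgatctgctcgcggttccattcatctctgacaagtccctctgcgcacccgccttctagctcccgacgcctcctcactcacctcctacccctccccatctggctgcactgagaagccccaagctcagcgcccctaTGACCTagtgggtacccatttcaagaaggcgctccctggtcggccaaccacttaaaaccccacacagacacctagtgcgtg

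The upstream stretch held 1 match to TGATTNAT, which was present in 2.85% of the 32851 RefSeq promoter windows trimmed to the same length. The stretch called in both genotypes with Ep300 deleted held 1 match to AGGTCA, present in 14.6% of promoter windows of that length. The bases before the Hoxb4 start also held 1 match to AGGTCA, present in 14.0% of windows. The second stretch held 0 matches to the 7 motifs, and no matches overlapped one another. In windows as long as the upstream stretch, the other 6 motifs were present in 4.86% (TAATTA), 16.1% (TGACAG), 14.2% (AGGTCA), 14.1% (TGTGGT), 10.0% (AGATAA), and 12.2% (CCGGAA) of promoters. Of CG dinucleotides, the stretch called with Ep300 deleted held 12, a number reached by 35.3% of promoter windows, and the bases before Hoxb4 held 14, reached by 29.4%. The upstream stretch and the second stretch held 4 CG dinucleotides each, a number that 62.5% and 58.9% of windows reached. A match here is one of letters and not a bound site.

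**Figure D1:**
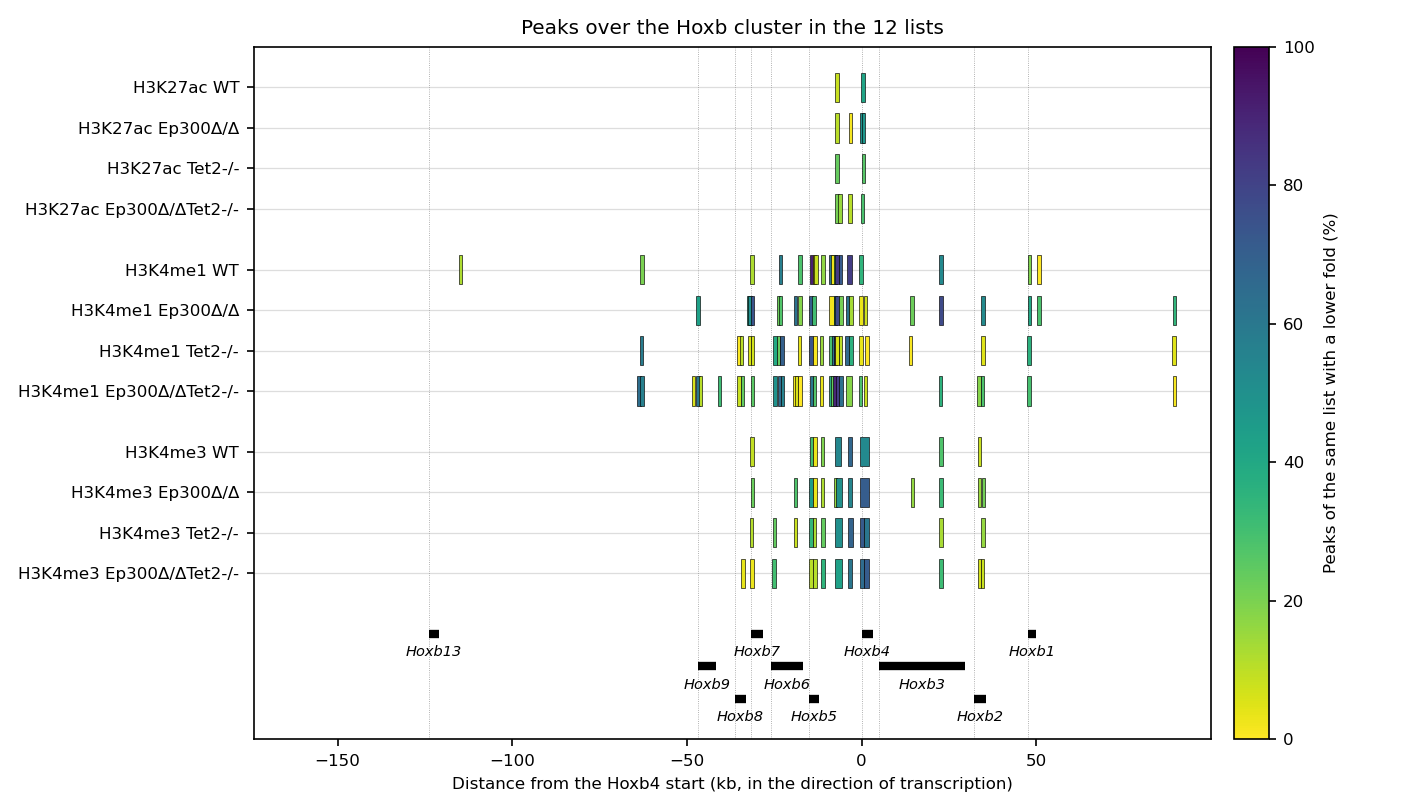
Peaks of the 12 lists over the Hoxb span, with the distance from the Hoxb4 start in kb on the x axis and 1 row for each mark and genotype. Each box is a peak, drawn at least 1 kb wide, its color gives the percent of peaks of the same list with a lower fold, and black bars are the Hoxb genes; the 12 H3K27ac peaks sit just before and at Hoxb4, whereas H3K4me1 boxes are spread from Hoxb13 to beyond Hoxb1 and H3K4me3 boxes from Hoxb7 or Hoxb8 to Hoxb2.

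In these single libraries the span held the fewest H3K4me1 and H3K4me3 peaks in WT cells, and more H3K27ac peaks in both genotypes with Ep300 deleted than in those with Ep300 intact. H3K27ac peaks numbered 2 in WT, 4 in Ep300Δ/Δ, 2 in Tet2-/-, and 4 in Ep300Δ/ΔTet2-/- cells. Of the 4 in Ep300Δ/Δ cells, 2 are pieces of the call at Hoxb4 that lay 117 bp apart. Another had a −log10 q of 1.13, which did not meet the stated threshold. With only peaks of q under 0.05 kept, 0 of 2 merged regions were gained from WT to Ep300Δ/Δ cells. In the same order there were 19, 24, 25, and 31 peaks of H3K4me1 and 9, 13, 12, and 13 of H3K4me3. The whole lists did not follow this order, and WT cells had the longest H3K27ac list, of 29659 peaks, against 22727, 24539, and 18327. The H3K4me1 lists held 107392, 90738, 98069, and 93465 peaks, and the H3K4me3 lists 26289, 25012, 27807, and 27268. Per 10000 peaks of its list, the span held 0.674, 1.76, 0.815, and 2.18 H3K27ac peaks, 1.77, 2.64, 2.55, and 3.32 H3K4me1 peaks, and 3.42, 5.20, 4.32, and 4.77 H3K4me3 peaks. A peak can also be split or widened between lists, so the length covered was compared. H3K27ac covered 0.442%, 0.403%, 0.201%, and 0.825% of the span, so that the 4 calls of Ep300Δ/Δ cells covered less of it than the 2 WT calls. H3K4me1 covered 3.24%, 4.78%, 5.01%, and 6.36%, and H3K4me3 2.93%, 3.64%, 3.76%, and 4.10%. Peak lists do not give sequencing depth, whose part in these numbers was not tested.

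**Figure D2:**
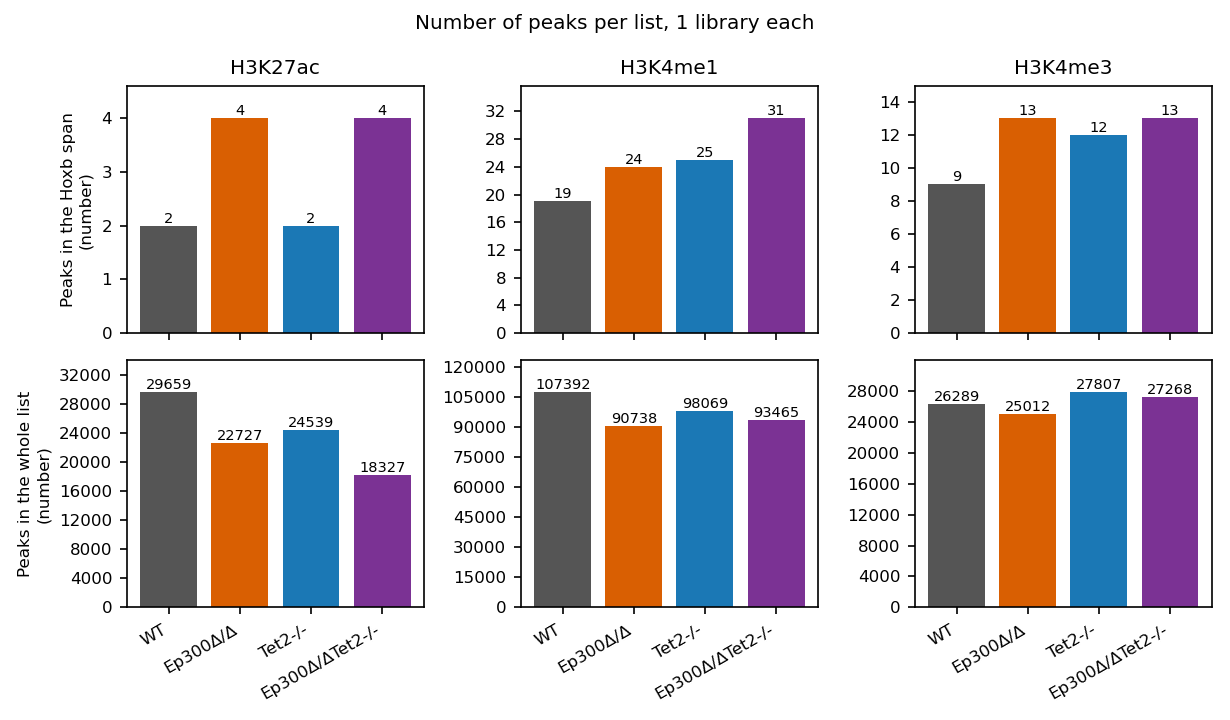
Number of peaks in the Hoxb span (upper row) and in the whole list (lower row) for the 3 marks, with 1 bar for each genotype and each y axis starting at 0. WT cells had the fewest peaks in the span for H3K4me1 and H3K4me3, and the longest whole list for H3K27ac and H3K4me1.

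The marks were densest in the 18.3 kb from the start of Hoxb5 to the end of Hoxb4. All H3K27ac peaks lay in this stretch, together with 11, 10, 12, and 11 of the H3K4me1 peaks and 6, 7, 7, and 7 of the H3K4me3 peaks of WT, Ep300Δ/Δ, Tet2-/-, and Ep300Δ/ΔTet2-/- cells. The 31.9 kb from Hoxb9 to Hoxb5 is where H3K4me1 calls differed most in number between the lists, with 3, 8, 8, and 12 peaks. H3K4me3 had 1, 2, 3, and 3 peaks there. From the end of Hoxb4 to the end of Hoxb1 there were 2, 4, 3, and 4 H3K4me1 and 2, 4, 2, and 3 H3K4me3 peaks. The 77.1 kb from Hoxb13 to Hoxb9 held 2, 0, 1, and 3 H3K4me1 peaks and no other mark, and the 50 kb beyond Hoxb13 held 0 peaks of any mark in all 4 genotypes.

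The Hoxb4 start was the one Hoxb start with H3K27ac, in each of the 4 genotypes. Hoxb4 (ENSMUSG00000038692.8, chr11:96318267-96321638) has 2 exons, and its first exon ends at 96319223 with coding sequence from 96318770. In WT cells 1 peak of 615 bp (chr11:96318301-96318915) covered 469 bp of the 5′ UTR and 146 bp of coding sequence, with a fold over the H3 library of 5.92 and a −log10 q of 9.54. In Ep300Δ/Δ cells 2 peaks, 117 bp apart, stood in its place, with folds of 5.95 and 5.63 and −log10 q of 7.35 and 5.85. The first of them began 57 bp before the gene. In Tet2-/- cells the peak was 187 bp long, began 464 bp inside the gene, and had a fold of 4.65 and a −log10 q of 7.98. In Ep300Δ/ΔTet2-/- cells it was 320 bp long, lay wholly in the 5′ UTR, and had a fold of 5.16 and a −log10 q of 10.4. Folds cannot be set side by side as amounts between lists, so each was ranked in its own list. The strongest Hoxb4 peak had a fold above that of 41.5% of the WT, 50.1% of the Ep300Δ/Δ, 26.3% of the Tet2-/-, and 28.9% of the Ep300Δ/ΔTet2-/- H3K27ac peaks. It reached the median of its list in Ep300Δ/Δ cells alone, and of all 12 H3K27ac peaks this was the one that did. The Tet2-/- and Ep300Δ/ΔTet2-/- peaks at Hoxb4 did not meet: 78 bp separated them, so that the rule of 1 shared base counted 1 lost and 1 gained region at a start that carried a call in both lists.

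A second region, centered 7.08 kb before the Hoxb4 start (chr11:96310688-96311679), also carried H3K27ac in all 4 genotypes. It is intergenic, 4273 bp from the start of the antisense transcript Hoxb5os. The peak spanned 595 bp in WT, 252 bp in Ep300Δ/Δ, 363 bp in Tet2-/-, and 992 bp in Ep300Δ/ΔTet2-/- cells. Its fold was 3.61, 3.35, 4.51, and 4.62, above that of 8.24%, 10.2%, 23.8%, and 20.7% of its list, and its −log10 q was 2.44, 1.69, 8.57, and 6.88. Next to it, 1 region was called in Ep300Δ/ΔTet2-/- cells alone (chr11:96311821-96312219), with a fold of 4.23, above 15.3% of its list, and a −log10 q of 4.68. With peaks within 500 bp counted as shared, it joined the neighboring region called in all 4 genotypes. H3K4me1 and H3K4me3 covered 100% of its 399 bp in all 4 genotypes.

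The region called in both genotypes with Ep300 deleted and in neither with Ep300 intact lay 3.27 kb before Hoxb4 (chr11:96314722-96315270), 2169 bp before the start of the microRNA gene Mir10a. In Ep300Δ/Δ cells the peak was 262 bp long with a fold of 2.53, above 1.47% of its list, and its −log10 q of 1.13 was below the 1.3 that the stated threshold of q = 0.05 sets. In Ep300Δ/ΔTet2-/- cells it was 549 bp long with a fold of 3.87, above 10.6% of its list, and a −log10 q of 5.28. With only peaks of q under 0.05 kept, the Ep300Δ/Δ call was not made and the region was called in Ep300Δ/ΔTet2-/- cells alone. H3K4me3 covered 100% of this region in all 4 genotypes. H3K4me1 covered 100% of it in WT and Ep300Δ/ΔTet2-/- cells, 55.4% in Ep300Δ/Δ, and 57.2% in Tet2-/- cells. Both acetylation calls that differed between genotypes thus lay on stretches with calls of both methyl marks in every list.

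**Figure D3:**
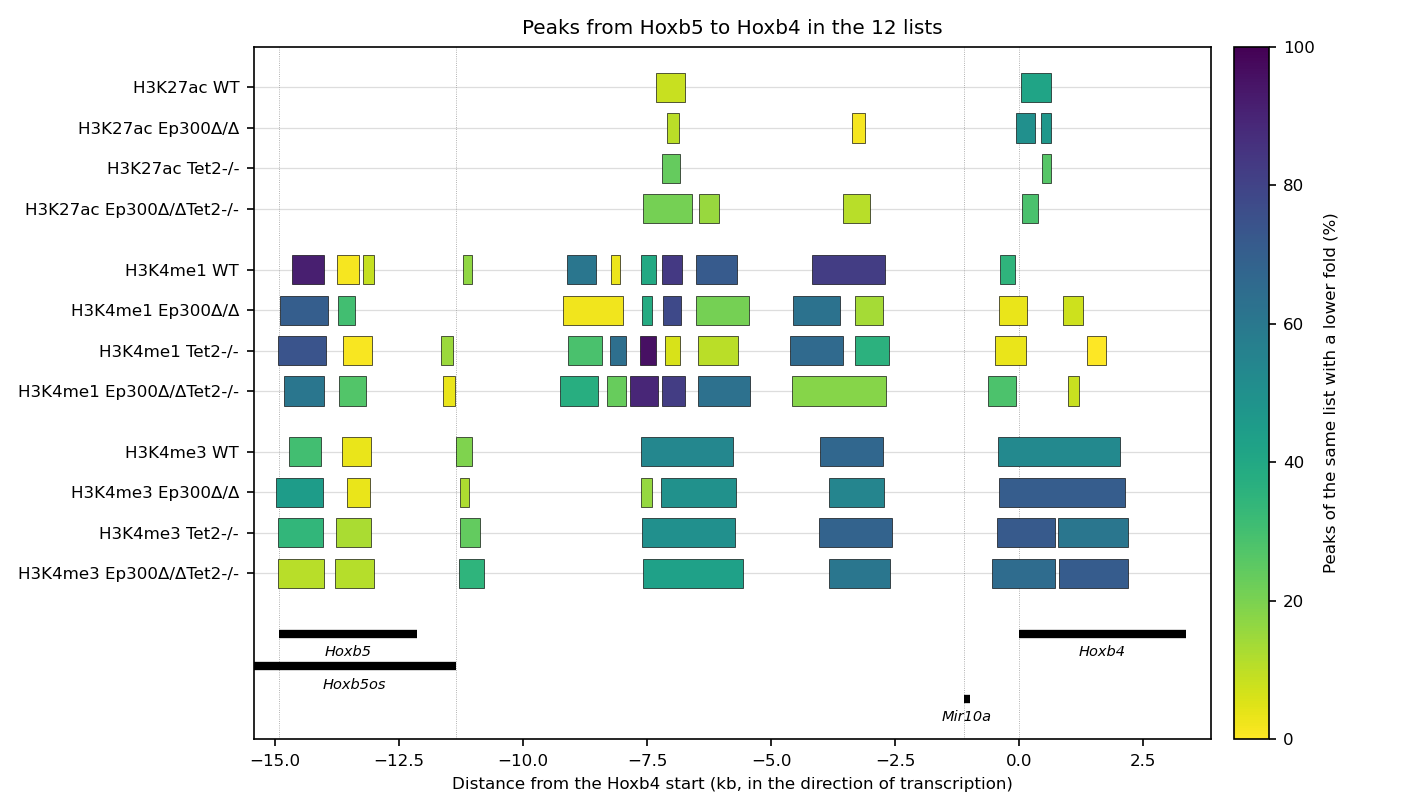
Peaks between Hoxb5 and Hoxb4, with the distance from the Hoxb4 start in kb on the x axis, 1 row for each mark and genotype, and color for the percent of peaks of the same list with a lower fold. H3K27ac at about 3.27 kb before Hoxb4 appears in the 2 rows with Ep300 deleted, over H3K4me1 and H3K4me3 boxes that are present in all 4 genotypes.

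H3K4me3 over the cluster formed 14 regions, and its 3 strongest lay on the same stretches as the acetylation. The region with the highest fold in the WT list was not at a gene start but 3.30 kb before Hoxb4 (chr11:96314242-96315698), with folds of 34.3, 18.7, 26.1, and 18.9 in WT, Ep300Δ/Δ, Tet2-/-, and Ep300Δ/ΔTet2-/- cells. These were above 66.9%, 54.6%, 68.6%, and 60.8% of the respective list. The region over Hoxb4 itself (chr11:96317723-96320465), which had the highest fold in the other 3 lists, had folds of 18.8, 33.4, 28.3, and 24.5, above 53.1%, 70.9%, 72.1%, and 71.1% of its list. It was called as 1 peak of 2458 bp in WT and 2535 bp in Ep300Δ/Δ cells, and as 2 peaks with 70 and 82 bp between them in Tet2-/- and Ep300Δ/ΔTet2-/- cells. The third lay 6.59 kb before Hoxb4 (chr11:96310651-96312696), with folds of 19.3, 15.1, 14.3, and 10.0, above 53.5%, 49.96%, 50.2%, and 43.3% of its list. In rank these regions therefore stood near or somewhat above the middle of the H3K4me3 lists, where acetylation of the same stretches stood mostly below the middle of the H3K27ac lists. Every H3K27ac peak of the span overlapped an H3K4me3 peak of the same genotype, 2 of 2, 4 of 4, 2 of 2, and 4 of 4, against 63.5%, 77.2%, 73.7%, and 83.4% of the H3K27ac peaks of the whole lists. An H3K4me1 peak of the same genotype was overlapped by 1 of 2, 3 of 4, 1 of 2, and 3 of 4 H3K27ac peaks, against 69.4%, 61.2%, 61.2%, and 60.3%. In the other direction, 2 of 9, 3 of 13, 2 of 12, and 3 of 13 H3K4me3 peaks of the span overlapped H3K27ac, against 54.5%, 48.8%, 50.8%, and 45.1% of the H3K4me3 lists.

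H3K4me1 formed 35 regions, and the order of their folds differed between lists. The region with the highest fold in Tet2-/- and Ep300Δ/ΔTet2-/- cells, upstream of Hoxb4 (chr11:96310432-96310978), had folds of 4.17, 4.17, 10.5, and 7.66 in WT, Ep300Δ/Δ, Tet2-/-, and Ep300Δ/ΔTet2-/- cells. In rank it stood above 39.6% and 39.0% of the WT and Ep300Δ/Δ lists, and above 95.9% and 89.2% of the Tet2-/- and Ep300Δ/ΔTet2-/- lists, so that it ranked higher in both lists without Tet2. The region at the Hoxb5 start (chr11:96303322-96304333), with the highest fold in WT cells, had folds of 7.79, 5.49, 6.53, and 5.20, above 91.6%, 70.5%, 74.0%, and 60.8% of its list. The region under the acetylated upstream stretch (chr11:96311069-96311539), with the highest fold in Ep300Δ/Δ cells, had folds of 6.58, 5.99, 2.97, and 6.72. It stood above 83.3%, 77.8%, 5.998%, and 82.1% of its list, low in Tet2-/- cells alone. At the Hoxb4 start an H3K4me1 region was called in all 4 genotypes (chr11:96317644-96318419). Its peaks ended before the gene in WT and Ep300Δ/ΔTet2-/- cells, at 96318185 and 96318200, and inside the first exon in Ep300Δ/Δ and Tet2-/- cells, at 96318419 and 96318401. In WT and Ep300Δ/ΔTet2-/- cells 0 bp of the acetylated Hoxb4 region carried an H3K4me1 call.

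By gene, the starts with a peak within 3 kb were fewest in WT cells and most in Ep300Δ/ΔTet2-/- cells for H3K4me1 and H3K4me3, and 1 of 10 in each list for H3K27ac. H3K27ac was called at 1 of 10 Hoxb starts in WT, Ep300Δ/Δ, Tet2-/-, and Ep300Δ/ΔTet2-/- cells, against 44.2%, 42.2%, 43.2%, and 40.3% of all protein-coding starts. H3K4me1 was called at 5, 7, 7, and 8 of 10, against 58.3%, 58.5%, 57.3%, and 58.7%. H3K4me3 was called at 4, 5, 6, and 7 of 10, against 58.8%, 60.0%, 59.3%, and 59.6%, and in the 3 lists other than WT 1 of these was the Hoxb3 start, reached by the edge of the Hoxb4 peak. The Hoxb starts thus stood below the background for H3K27ac in every list, and on both sides of it for the methyl marks. This order did not hold under every setting. Within 1500 bp, H3K4me3 was called at 4, 4, 4, and 5 starts. With lists of equal size it was called at 4, 5, 6, and 5, and with −log10 q of at least 5 at 3, 5, 6, and 5, so that Tet2-/- cells had the most. At that −log10 q, H3K4me1 was called at 3, 3, 4, and 6 starts. Within 500 bp of a start, H3K4me1 was called at 4, 5, 4, and 5 and H3K4me3 at 3, 3, 3, and 4 starts in WT, Ep300Δ/Δ, Tet2-/-, and Ep300Δ/ΔTet2-/- cells, so that WT cells tied with other lists.

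**Figure D4:**
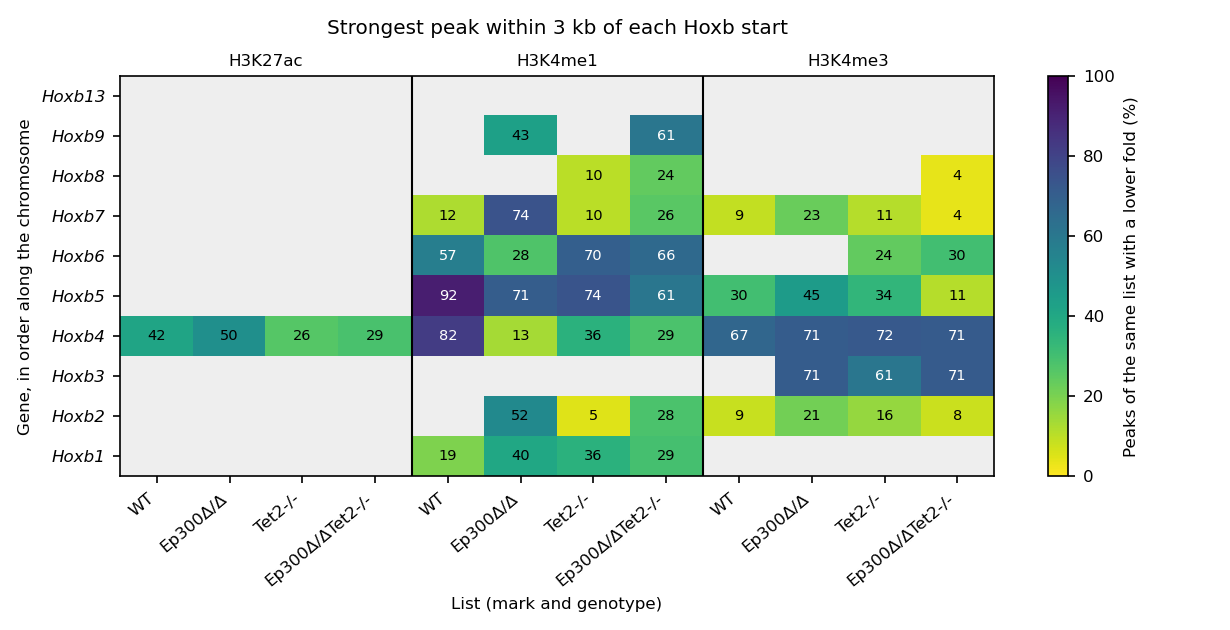
Strongest peak within 3 kb of each Hoxb start, with the genes in chromosome order on the y axis and the 12 lists on the x axis. Numbers and color give the percent of peaks of the same list with a lower fold, and gray means that no peak was called; H3K27ac is filled for Hoxb4 alone, and the Hoxb3 squares of H3K4me3 are the Hoxb4 peak reaching within 3 kb.

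Hoxb1, which acts in hindbrain patterning, carried H3K4me1 inside the gene, just after its start, in all 4 genotypes (chr11:96365753-96366678), with folds of 3.38, 4.21, 4.45, and 3.89, and no H3K4me3 or H3K27ac in any. Beyond the end of Hoxb1, an H3K4me1 region was called in WT and Ep300Δ/Δ cells alone (chr11:96368895-96369160), with folds above 0.220% and 28.8% of the list. The WT peak had a −log10 q of 0.508, which did not meet the stated threshold, and with only peaks of q under 0.05 kept the region was called in Ep300Δ/Δ cells alone. Hoxb2, also a hindbrain gene, carried methyl marks over its gene body, in regions centered 1348 to 2584 bp after its start. An H3K4me1 region (chr11:96352565-96353242) and an H3K4me3 region (chr11:96352585-96353633) near the start of the antisense transcript Hoxb3os were called in the 3 lists other than WT. There the H3K4me3 folds were 5.52, 4.78, and 3.61, above 21.3%, 15.7%, and 7.89% of the Ep300Δ/Δ, Tet2-/-, and Ep300Δ/ΔTet2-/- lists. A neighboring H3K4me3 region (chr11:96351846-96352314) was called in WT, Ep300Δ/Δ, and Ep300Δ/ΔTet2-/- cells and not in Tet2-/- cells. At Hoxb3 no mark had a summit within 3 kb of the gene start. Hoxb3 has 4 annotated transcript starts, and by the nearest transcript start 5 H3K4me3 peaks of the 4 lists fell to it in place of 1. Predicted RefSeq starts of Hoxb3 lay within 2 H3K4me3 regions called in all 4 genotypes, 1 between Hoxb5 and Hoxb4 (chr11:96306922-96307473) and 1 inside the gene. The latter, 9.57 kb before Hoxb2 and within the antisense gene Gm11536 (chr11:96340704-96341200), was called in all 4 genotypes with folds of 7.01, 7.36, 4.48, and 6.69. In an intron of Hoxb3, H3K4me1 and H3K4me3 were called at overlapping places in Ep300Δ/Δ cells alone (chr11:96332642-96332876 and chr11:96332618-96333034), with folds of 3.60 and 4.89. An H3K4me1 peak close by in Tet2-/- cells (chr11:96332088-96332329) had a fold above 1.07% of its list and a −log10 q of 0.972, which did not meet the stated threshold.

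Hoxb5 had 8, 6, 7, and 9 H3K4me1 and 3, 5, 4, and 3 H3K4me3 peaks nearest to its start. Summed over the 4 lists, its H3K4me1 peaks numbered 30, the most of any member, but 16 when the start of any annotated gene counted, with 18 then falling to Hoxb5os. Between Hoxb5 and Hoxb4 an H3K4me1 region was called in WT cells alone (chr11:96307064-96307239), with a fold of 3.33. The H3K4me3 region at its start (chr11:96303282-96304261) had folds of 7.49, 12.1, 7.90, and 3.95, above 30.3%, 45.0%, 34.3%, and 10.9% of its list, lowest in Ep300Δ/ΔTet2-/- cells. Neither it nor any other start from Hoxb5 to Hoxb13 carried an H3K27ac call. Around the GENCODE start of Hoxb6, both methyl marks were called within 1 kb in the 2 genotypes without Tet2, and neither there in the other 2. A further H3K4me1 region inside the gene (chr11:96294303-96295920) was called in all 4 genotypes. H3K4me3 (chr11:96292877-96293631) had folds of 5.90 and 6.47, above 24.0% and 30.5% of the Tet2-/- and Ep300Δ/ΔTet2-/- lists, and H3K4me1 (chr11:96293114-96293780) folds of 4.61 and 4.63, above 39.8% and 48.7%. This pattern depends on the start chosen, since the curated RefSeq start of Hoxb6 lies further along, at position 96299074. By that start, 76 bp away, H3K4me3 was called in Ep300Δ/Δ and Tet2-/- cells (chr11:96299150-96299603, folds 6.53 and 3.92), and H3K4me1 in Ep300Δ/Δ and Ep300Δ/ΔTet2-/- cells (chr11:96299019-96299754). Hoxb7 carried H3K4me3 (chr11:96286532-96287231) and H3K4me1 (chr11:96286749-96287320) in all 4 genotypes. Its H3K4me3 folds were 4.31, 5.70, 4.27, and 2.94, above 8.99%, 22.7%, 11.1%, and 2.88% of its list, so these calls were among the weaker ones of every list.

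Hoxb8, which blocks myeloid differentiation when overexpressed, carried H3K4me1 over its gene body in the 2 genotypes without Tet2 (chr11:96282876-96283503 and chr11:96283749-96284407). The folds of the first region were 2.17 and 2.98 and those of the second 3.30 and 3.70 in Tet2-/- and Ep300Δ/ΔTet2-/- cells, and 0.508% to 23.9% of the list had lower values. In Ep300Δ/ΔTet2-/- cells H3K4me3 was also called over the gene, at a place nearer to the Hoxb7 start (chr11:96284172-96284438), with a fold of 3.10, above 3.79% of its list. Hoxb9, a gene of the thoracic body axis, carried H3K4me1 at its start in the 2 genotypes with Ep300 deleted (chr11:96271098-96271702), with folds of 4.33 and 5.21, above 43.3% and 60.9% of the Ep300Δ/Δ and Ep300Δ/ΔTet2-/- lists. Of the other regions nearest to it, 1 was called in WT, Tet2-/-, and Ep300Δ/ΔTet2-/- cells and not in Ep300Δ/Δ cells (chr11:96255087-96255730), with folds of 3.47, 5.50, and 4.97, and 3 were called in Ep300Δ/ΔTet2-/- cells alone (chr11:96254354-96254769, chr11:96269949-96270379, and chr11:96272037-96272269), with folds of 5.37, 2.81, and 3.12. Hoxb13, a gene of the tail and the prostate, had 1 H3K4me1 peak assigned to it, in WT cells, 9.16 kb after its start and with a fold of 3.13. At the other end of the span, 1 H3K4me1 region lay 42.0 kb beyond the Hoxb1 start (chr11:96407442-96408161) and was called in the 3 lists other than WT.

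Set against the whole genome, with the full lists, the share of Hoxb regions that were called in all 4 genotypes was close to that of the lists for the methyl marks. For H3K4me1 12 of 35 regions (34.3%, exact 95% interval 19.1% to 52.2%) were called in all 4, against 34.4% of all merged H3K4me1 regions. The Hoxb share was 2 of 19 (10.5%) with −log10 q of at least 5 and 1 of 16 (6.25%) in the upper part by fold. No whole-list share is given for those settings. For H3K4me3 8 of 14 (57.1%, 28.9% to 82.3%) were, against 64.1%. For H3K27ac 2 of 4 were (6.76% to 93.2%), against 35.5%. These intervals come from the number of regions and cover counting error only.

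Between pairs of genotypes, H3K27ac in the cluster rested on 2 to 4 regions. From WT to Ep300Δ/Δ cells 0 of 2 regions were lost and 1 of 3 was gained, against 39.7% and 12.8% over the whole lists. From Tet2-/- to Ep300Δ/ΔTet2-/- cells 1 of 2 was lost and 3 of 4 were gained (19.4% to 99.4%), against 37.8% and 15.0%. The lost region and 1 of the 3 gained ones are the Hoxb4 peaks that missed each other by 78 bp. With peaks within 500 bp counted as shared, 0 of 2 were lost and 1 of 3 (33.3%) gained in this pair. From WT to Tet2-/- cells 0 of 2 were lost and 0 of 2 gained, against 35.6% and 20.3%. With lists of equal size, and with −log10 q of at least 5, 1 of 2 was gained in this pair. From Ep300Δ/Δ to Ep300Δ/ΔTet2-/- cells 1 of 4 was lost and 1 of 4 gained, against 31.2% and 18.5%. The lost region is the second piece of the split Ep300Δ/Δ call at Hoxb4, and with peaks within 500 bp counted as shared 0 of 3 were lost and 0 of 3 gained. Other settings raised the share gained in this pair. It was 3 of 4 with lists of equal size, 2 of 3 with −log10 q of at least 5, and 2 of 4 with q under 0.05. With so few regions, 1 share of the main setting had an interval that left out the share of the whole list. It was the 3 of 4 gained from Tet2-/- to Ep300Δ/ΔTet2-/- cells, and with peaks within 500 bp counted as shared it became 1 of 3. Whole-list shares are given for the main setting only.

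For H3K4me1 a smaller share of Hoxb regions was lost and a larger share gained than over the whole lists, in all 4 pairs, which share libraries. From WT to Ep300Δ/Δ cells 4 of 18 were lost (22.2%, 6.41% to 47.6%) and 9 of 23 gained (39.1%, 19.7% to 61.5%), against 36.7% and 24.1%. From Tet2-/- to Ep300Δ/ΔTet2-/- cells 3 of 23 were lost (2.78% to 33.6%) and 10 of 30 gained (33.3%, 17.3% to 52.8%), against 31.1% and 23.4%. From WT to Tet2-/- cells 4 of 18 were lost and 10 of 24 gained (41.7%, 22.1% to 63.4%), against 28.6% and 26.8%. From Ep300Δ/Δ to Ep300Δ/ΔTet2-/- cells 4 of 22 were lost and 11 of 29 gained (37.9%, 20.7% to 57.7%), against 26.2% and 29.5%. Each of these 8 shares had an interval that held the share of the whole list. With only peaks of −log10 q of at least 5, 5 of 9 regions (55.6%) were lost from WT to Ep300Δ/Δ cells and 3 of 7 (42.9%) from Ep300Δ/Δ to Ep300Δ/ΔTet2-/- cells, whereas 0 of 10 were lost from Tet2-/- to Ep300Δ/ΔTet2-/- cells. In the upper part of each list by fold, the shares lost were 42.9%, 33.3%, 57.1%, and 75% in the order of the pairs above, each larger than the share printed for the full lists, which were not recomputed at either setting.

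H3K4me3 regions of the cluster were mostly shared. From WT to Ep300Δ/Δ cells 0 of 9 were lost (0% to 33.6%) and 3 of 12 gained (5.49% to 57.2%), against 15.4% and 11.1%. From Tet2-/- to Ep300Δ/ΔTet2-/- cells 1 of 12 was lost and 2 of 13 gained, against 13.3% and 9.45%. With lists of equal size, and with −log10 q of at least 5, 0 of 10 were gained in this pair. From WT to Tet2-/- cells 1 of 9 was lost and 3 of 11 gained, against 11.1% and 13.6%. From Ep300Δ/Δ to Ep300Δ/ΔTet2-/- cells 2 of 12 were lost and 2 of 12 gained, against 10.3% and 13.2%. These 8 intervals too held the share of the whole list. Where only peaks in the upper part of each list by fold were kept, 0 H3K4me3 regions of the cluster were gained in the 4 pairs, 1 of 3 was lost from WT to Ep300Δ/Δ cells, and 1 of 4 was lost from Tet2-/- to Ep300Δ/ΔTet2-/- cells.

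**Figure D5:**
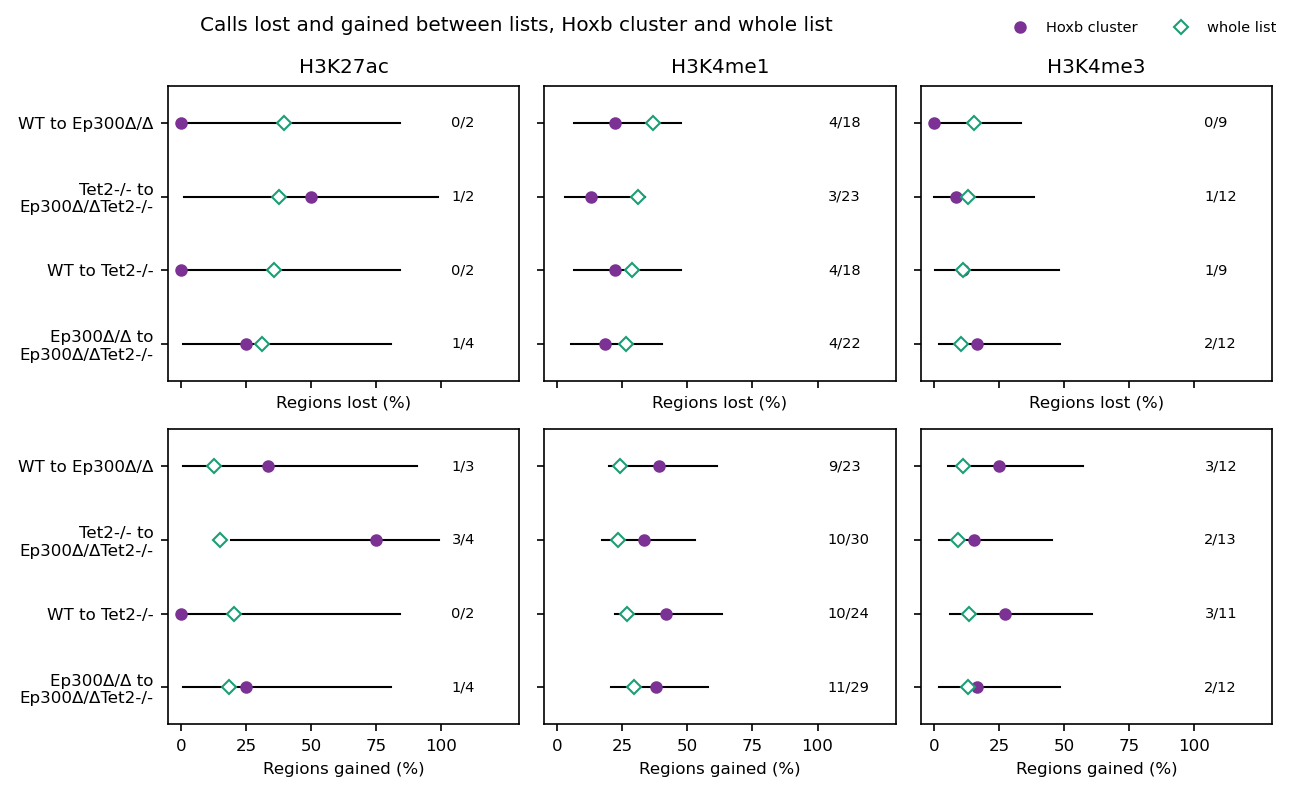
Percent of regions lost (upper row) and gained (lower row) between pairs of genotypes for the 3 marks, with purple points for the Hoxb cluster, black lines for exact 95% intervals from the number of regions, green diamonds for the whole lists, and the counts at the right of each panel. The gained H3K27ac share from Tet2-/- to Ep300Δ/ΔTet2-/- cells, 3 of 4, is the one point whose line does not reach the diamond, and 1 of these 3 is the Hoxb4 peak; with peaks within 500 bp counted as shared the value was 1 of 3.

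The other Hox clusters showed how far this layout was shared. Hoxa, whose genes are active in blood progenitors, had H3K27ac at 4, 4, 2, and 4 of 11 starts, H3K4me1 at 9, 8, 9, and 10, and H3K4me3 at 7, 9, 7, and 7. Its span held 7, 10, 3, and 7 H3K27ac peaks, more with Ep300 deleted than with Ep300 intact on each Tet2 background. These peaks covered 1.47%, 3.01%, 0.493%, and 2.11% of the Hoxa span. In the Hoxb span the excess of Ep300Δ/Δ over WT calls rested on a split peak and a call that missed the stated q. The Ep300Δ/Δ calls there covered 0.403%, against 0.442% in WT cells. Hoxc and Hoxd had H3K27ac at 0 of 9 starts each in all 4 lists, with H3K4me1 at 2, 2, 3, and 3 Hoxc and 3, 4, 3, and 4 Hoxd starts, and H3K4me3 at 2 Hoxc starts in each list and at 1, 2, 1, and 1 Hoxd starts. H3K4me1 in the Hoxa span numbered 39, 30, 27, and 37 peaks, most in WT cells, whereas in the Hoxb span WT cells had the fewest. These differences between clusters were not tested.

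Of 20 genes that encode Hox cofactors and regulators, among them Meis1 (a partner of Hox proteins on DNA), Kmt2a and Men1, and the Polycomb genes Ezh2, Suz12, and Eed, H3K27ac lay at the start of 10, 11, 10, and 10. H3K4me1 lay at 15, 15, 15, and 18, and H3K4me3 at 16 in each list. Meis1, Kmt2a, Men1, Ezh2, Suz12, and Eed carried H3K27ac in all 4 genotypes, Pbx3 in Ep300Δ/Δ cells alone, and Rara, Rarb, Rarg, and Rxra, which encode retinoid receptors, in none. Meis2, Bmi1, Cdx1, Cdx2, and Cdx4 also carried it in none.

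The labeled cell type was checked at marker genes. Of 10 progenitor genes, such as Kit and Cd34, H3K27ac lay at the start of 9 to 10 and H3K4me3 at 10 in every list, and of 6 genes of other tissues, such as Alb, H3K27ac lay at 0 and H3K4me3 at 1. H3K27ac lay at 0 to 2 of 6 B cell, 0 to 1 of 5 T cell, 2 to 4 of 5 erythroid, and 0 to 2 of 5 mature myeloid genes. No list had fewer of any of these than that of Ep300Δ/ΔTet2-/- cells. That list was also the shortest for H3K27ac, with 18327 peaks, and reached the smallest share of all protein-coding starts, 40.3%. H3K4me1 lay at all 10 progenitor, 3 to 5 B cell, 1 to 2 T cell, 3 to 4 erythroid, 3 to 5 mature myeloid, and 1 to 2 other-tissue genes, and H3K4me3 at 1 to 3 B cell, 1 to 2 T cell, 4 erythroid, and 2 to 3 mature myeloid genes. At B cell genes H3K4me1 was called at 5 in Ep300Δ/ΔTet2-/- cells, the most, against 4, 3, and 4 in WT, Ep300Δ/Δ, and Tet2-/- cells. The part of the makeup of Lin- cells in the Hoxb calls was not tested, and in bulk chromatin a mark in fewer cells and a weaker mark per cell cannot be told apart.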

How the data were processed

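The 12 peak lists of H3K27ac, H3K4me1, and H3K4me3, of 20 samples in the series, were used. The 8 H3 and H3K27me3 samples were not analysed here. The authors trimmed reads with Cutadapt 1.15, aligned them to mm10 (GRCm38) with BWA 0.7.13, marked duplicates with Picard, and called narrow peaks with MACS2 2.1.1.20160309 on each library against its H3 library, with pseudo-replicates of that 1 library and a stated q of 0.05. The deposited fold (ratio over H3), −log10 p, and −log10 q describe 1 list each, so the fold was ranked within a list, and the deposited score was not used. Between 0.137% and 7.17% of a list had a q-value above the stated one. No scaling by the Drosophila spike-in is described for these lists, the sources disagree on single-end or paired-end reads and on the H3 antibody, and depth is unknown, so a region missing from a list may be one just under its threshold.

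The members, gene lists, and motifs were chosen with earlier results of these data known. The 10 members were named whatever their values. Regions were given in full for H3K27ac, with the other marks at those places, and for the 3 highest folds of each mark; other regions were chosen after their values were seen. Lists were merged, and a region with no peak of the other list (1 bp of overlap) was lost or gained. Gene starts came from GENCODE release 21. Alternatives were the overlap (50% of the shorter interval, or within 500 bp), a −log10 q of at least 5, lists of equal size, the upper part of each list by fold, the span, the window at starts, and the assignment to genes. A q under 0.05 was added after seeing the data. The overlap code was tested on simulated data (10 of 10 pairs recovered) and equaled bedtools 2.31.1 in 12 of 12 real pairs. Figures were drawn with matplotlib 3.10.9, sequences read with pysam 0.24.0, exact (Clopper-Pearson) 95% intervals taken from scipy 1.17.1, and tables handled with pandas 2.3.3 and numpy 2.4.6 under Python 3.11.15. Counts over the cofactor list cover all 20 genes, not all of which are named here.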

Additional observations from a re-analysis of the deposited data

Results flagged for a closer look

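The 9 flagged entries each pair a count of peaks assigned to a Hoxb gene with 1 of the losses, Ep300 deletion or Tet2 loss. In each, the change with that loss went one way in one background and the other way in the other. The difference between backgrounds is by arithmetic the same number for either loss, so a count flagged for both losses gives a single difference. None of these differences was tested, since each rests on 1 library per genotype. Counts are given for WT, Ep300Δ/Δ, Tet2-/-, and Ep300Δ/ΔTet2-/- cells. H3K4me1 peaks assigned to Hoxb3 numbered 0, 1, 1, and 0, so the change with Ep300 deletion, and likewise that with Tet2 loss, differed by -2 between backgrounds. The Tet2-/- peak among these had a −log10 q of 0.972, which did not meet the stated threshold. Without that peak the change would not reverse for either loss. H3K4me1 peaks assigned to Hoxb4 numbered 4, 6, 6, and 5, a difference of -3 for both losses. Of the 6 in Tet2-/- cells, 1 had a −log10 q of 0.572 (chr11:96319647-96320014), which did not meet the stated threshold. Without that peak the change would no longer reverse for Ep300 deletion, but would still reverse for Tet2 loss. H3K4me1 peaks assigned to Hoxb5 numbered 8, 6, 7, and 9, a difference of 4 for both losses. Of the 9 in Ep300Δ/ΔTet2-/- cells, 1 had a −log10 q of 1.09, which also missed the stated threshold. Without that peak the change would still reverse for both losses. H3K4me1 peaks assigned to Hoxb7 numbered 1, 3, 2, and 2, a difference of -2 for Tet2 loss. H3K4me3 peaks assigned to Hoxb5 numbered 3, 5, 4, and 3, a difference of -3 for both losses.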

How the results depend on the processing

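Of 282 recomputed shares and counts, 247 stayed within the exact interval of the share or within 1.5 times the count, and 35 moved. For H3K27ac these intervals rest on 2 to 4 regions and are wide, so few changes could count as moved. With lists of equal size the H3K27ac share gained went from 25% to 75% from Ep300Δ/Δ to Ep300Δ/ΔTet2-/-, and from 0% to 50% from WT to Tet2-/-. Both counted as having stayed. The 50% overlap, the span with no extension or with 100 kb, the 1500-bp window, and every transcript start moved 0 by this measure, though the 1500-bp window left WT tied with 2 other lists for H3K4me3 starts. With −log10 q of at least 5, the H3K4me1 share called in all 4 genotypes was 10.5%, the H3K27ac share gained from WT to Ep300Δ/Δ was 0%, and the H3K4me1 shares lost were 55.6% (WT to Ep300Δ/Δ), 0% (Tet2-/- to Ep300Δ/ΔTet2-/-), and 42.9% (Ep300Δ/Δ to Ep300Δ/ΔTet2-/-, where 76.5% were gained). The H3K4me3 share gained from Tet2-/- to Ep300Δ/ΔTet2-/- and that lost from WT to Tet2-/- were then 0%, and H3K4me1 starts numbered 3, 3, and 4 in WT, Ep300Δ/Δ, and Tet2-/- cells. With lists of equal size, the H3K27ac share gained from WT to Ep300Δ/Δ and the H3K4me3 share gained from Tet2-/- to Ep300Δ/ΔTet2-/- were 0%, and with q under 0.05 the former was also 0%. In the upper part by fold, 0% of H3K27ac and 6.25% of H3K4me1 regions were called in all 4 genotypes. There 100% of H3K27ac regions, 1 of 1, were gained from WT to Ep300Δ/Δ and 100% lost from Ep300Δ/Δ to Ep300Δ/ΔTet2-/-. There the H3K4me1 shares were 57.1% lost from WT to Tet2-/-, and 75% lost and 77.8% gained from Ep300Δ/Δ to Ep300Δ/ΔTet2-/-, and the H3K4me3 shares were 0% gained in all 4 pairs and 0% lost from WT to Tet2-/- and from Ep300Δ/Δ to Ep300Δ/ΔTet2-/-. Pairs with no H3K27ac region left in that part gave no value. Within 500 bp, the H3K27ac shares were 0% lost from Tet2-/- to Ep300Δ/ΔTet2-/- and 0% lost and 0% gained from Ep300Δ/Δ to Ep300Δ/ΔTet2-/-, and the share gained from Tet2-/- to Ep300Δ/ΔTet2-/- was 33.3% in place of 75%. In the 500-bp window, H3K4me1 starts numbered 4 in Tet2-/- and 5 in Ep300Δ/ΔTet2-/- cells, and H3K4me3 starts 3, 3, and 4 in Ep300Δ/Δ, Tet2-/-, and Ep300Δ/ΔTet2-/- cells. Of 51 recomputed assignments of peaks to Hoxb genes, 16 moved, 10 of them with starts of any annotated gene. Stricter settings left fewer regions, and other causes were not tested. No paired analysis was possible because the labels give every library the same replicate number and there is 1 library per genotype and mark. With 2 to 4 acetylated regions in a list, a single region decides each H3K27ac share.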
